A study of Mus musculus with 4 samples.

Results

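Hox genes encode homeodomain transcription factors and lie in 4 clusters, which in the mouse are HoxA on chromosome 6, HoxB on chromosome 11, HoxC on chromosome 15 and HoxD on chromosome 2. Every gene whose symbol is Hox with a letter from a to d and a number was taken as a member. The RefSeq table lists 39 such genes, and 35 of them had a read in at least 1 of the 4 rib chondrocyte samples, among 18298 genes listed in all. Of these 35, 27 had enough reads for a test between genotypes, and 8 were listed with fewer reads and were not tested. The other 4 of the 39 (Hoxa13, Hoxc11, Hoxd12 and Hoxd13) were listed in no sample.

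Genes of a cluster are numbered from its 3′ to its 5′ end, and genes that share a number across clusters form a paralogue group. Along the body axis the low numbers act from the hindbrain and neck, the middle numbers in the thorax and the high numbers in the lumbar, sacral and tail regions, and the combination of Hox proteins gives each vertebra and rib its form. Cells taken from the trunk or limbs keep much of the Hox pattern of their origin in culture, so the set of genes expressed is often read as a positional label of a skeletal cell.

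The samples were primary chondrocytes, the cells that make cartilage, isolated from rib cartilage of C57BL/6 mouse embryos at E18.5 and sequenced at passage 1 as poly(A) RNA. The 2 WT samples were Senp6f/f with no Cre, and the 2 Mut samples were Dermo1-Cre;Senp6f/f, so all samples carried both floxed alleles and the controls lacked the Cre. SENP6 is a protease that removes SUMO chains from proteins, and Dermo1-Cre is expressed from the Twist2 (Dermo1) locus in mesenchymal progenitors of cartilage and bone. The labels do not say whether the replicates came from separate embryos or how many embryos a culture held, so the p-values below measure the spread between these samples only.

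Sequencing depth lay between 21.02 and 30.99 M reads counted on genes per sample. Senp6 itself had an RPKM (reads scaled to the length of the gene and to the total of the sample) of 10.8 and 18.0 in WT and 12.0 and 8.07 in Mut, and as the counts cover the whole gene and not the floxed exons, they do not check the genotypes. Mut replicate 2 had 11354 reads of Xist and almost none of the Y-linked genes, whereas the other samples had at most 5 Xist reads, so it is female and the others are male. Chondrocyte markers were present in every sample, with Col2a1, the main cartilage collagen, at 609 and 659 in WT and 334 and 445 in Mut. WT replicate 1 had more RNA of muscle and osteoblast markers than WT replicate 2 and stood above it for several Hox genes, which is given beside those genes.

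The cultures expressed a broad set of 3′ and middle Hox genes from the HoxA, HoxB and HoxC clusters and almost none from HoxD. An RPKM of at least 1 in all 4 samples was found for 21 of the 39 genes, namely 8 of the 11 HoxA genes, 8 of the 10 HoxB genes, 5 of the 9 HoxC genes and 0 of the 9 HoxD genes. A further 3 genes, Hoxa10, Hoxc10 and Hoxd8, lay on both sides of an RPKM of 1, and 11 listed genes stayed under it in every sample. The plot of levels along the clusters shows values that vary from gene to gene, are highest in groups 5 to 8 and are low past group 9.

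**Figure D1:**
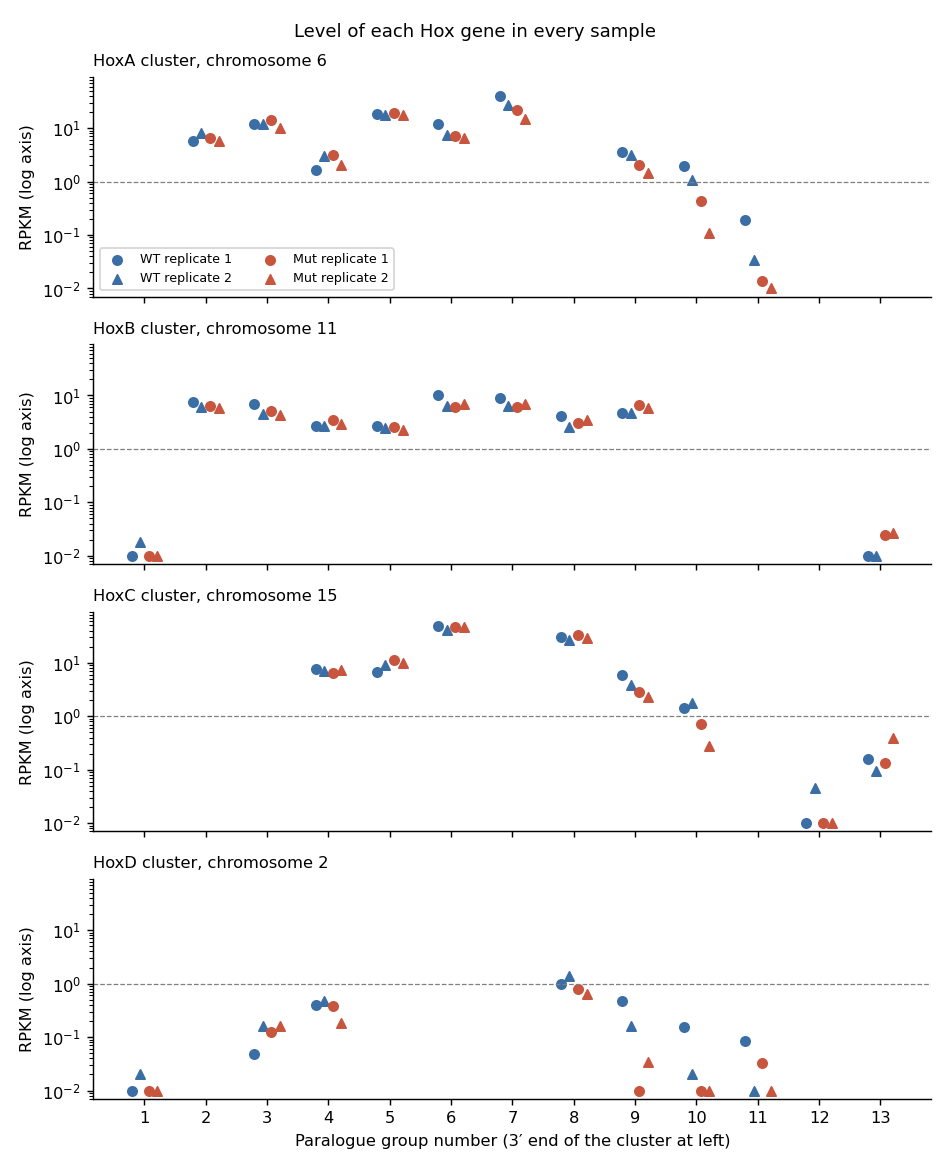
RPKM on a log axis of 34 Hox genes with a read, by paralogue group number, with 1 panel per cluster and 1 point per sample (circles, replicate 1; triangles, replicate 2; blue, WT; red, Mut). The dashed line marks an RPKM of 1, and values under 0.01, zeros included, are drawn at 0.01. Hoxc6, Hoxc8, Hoxa7 and Hoxa5 sit highest, the HoxD panel stays near or below the line, and Hoxa10 and Hoxc10 cross it between WT and Mut.

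The highest levels belonged to genes of groups 5 to 8. Hoxc6, a group 6 gene of the thoracic region, had an RPKM of 49.3 and 40.3 in WT and 47.5 and 47.2 in Mut. It was the highest Hox gene in each of the 4 samples. Hoxc8, whose loss in mice alters the attachment of thoracic ribs to the sternum, had an RPKM of 30.6 and 26.8 in WT and 33.8 and 28.8 in Mut. Hoxa5, which acts at the border of neck and thorax and in the lung, had an RPKM of 18.46 and 17.7 in WT and 19.4 and 18.0 in Mut. For these 3 genes the WT and Mut values overlapped. Their log2 fold changes of Mut over WT were 0.04 (SE 0.15) for Hoxc6, 0.08 (SE 0.16) for Hoxc8 and 0.01 (SE 0.14) for Hoxa5, with adjusted p values of 0.937, 0.851 and 0.989 by edgeR (quasi-likelihood test, Benjamini-Hochberg adjustment over the 14123 genes tested). The sign of these differences was not stable, since each of them became negative when 1 sample was left out.

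Hoxa7, a thoracic group 7 gene that also belonged to the leading set, had an RPKM of 39.7 and 27.2 in WT and 21.8 and 14.6 in Mut. It was the second highest Hox gene in both WT samples, although in WT replicate 2 it lay close to Hoxc8. It was the third in Mut replicate 1 and the fourth in Mut replicate 2, behind Hoxc8 and Hoxa5. Only these 4 genes (Hoxc6, Hoxc8, Hoxa7 and Hoxa5) had an RPKM of at least 10 in all samples. Mean RPKM over the 4 samples was 46.1 for Hoxc6, 30.0 for Hoxc8, 25.8 for Hoxa7 and 18.4 for Hoxa5, and it was 12.0 for Hoxa3, the next gene in order.

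The windows upstream of Hoxa5, Hoxa7, Hoxa9 and Hoxa10, on the minus strand of chromosome 6, are shown. These genes were picked to run from a gene of equal level in both genotypes to genes with lower values in both Mut samples. Hoxa6, which lies between Hoxa5 and Hoxa7 and also had lower values in both Mut samples, is not shown. The windows are RefSeq sequence of GRCm38.p6, written 5′ to 3′ along the gene strand and ending at the base before the annotated start. The window of Hoxa7 is shorter because an annotated transcript begins inside it. Capitals mark TTTATG, a core bound by CDX and 5′ Hox proteins, found on either strand.
Hoxa5, chr6:52204588-52204837: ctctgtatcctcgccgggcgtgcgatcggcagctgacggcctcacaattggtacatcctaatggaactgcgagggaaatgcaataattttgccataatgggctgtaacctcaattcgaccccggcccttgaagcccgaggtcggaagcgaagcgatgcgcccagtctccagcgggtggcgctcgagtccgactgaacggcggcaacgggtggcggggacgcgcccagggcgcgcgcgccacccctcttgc
Hoxa7, chr6:52218712-52218823: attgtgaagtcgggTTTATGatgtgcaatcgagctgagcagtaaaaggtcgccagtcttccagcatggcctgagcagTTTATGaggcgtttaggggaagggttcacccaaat
Hoxa9, chr6:52227371-52227620: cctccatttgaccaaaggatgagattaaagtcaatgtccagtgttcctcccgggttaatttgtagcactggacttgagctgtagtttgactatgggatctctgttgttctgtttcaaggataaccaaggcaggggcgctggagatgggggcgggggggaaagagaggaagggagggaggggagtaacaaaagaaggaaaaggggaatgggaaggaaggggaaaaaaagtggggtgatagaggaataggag
Hoxa10, chr6:52240855-52241104: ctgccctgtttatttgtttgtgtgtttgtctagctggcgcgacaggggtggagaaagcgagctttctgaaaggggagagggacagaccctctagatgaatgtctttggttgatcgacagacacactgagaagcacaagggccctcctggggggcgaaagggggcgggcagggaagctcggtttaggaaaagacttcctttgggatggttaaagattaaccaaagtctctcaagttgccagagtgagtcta

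The Hoxa5 window is rich in CpG, with 28 CpG in 250 bases and 63.6% G and C. The windows of Hoxa9 and Hoxa10 held 3 and 7 CpG in 250 bases, and that of Hoxa7 held 4 in 112. TTTATG occurred 2 times upstream of Hoxa7 and was not found in the other 3 windows. The GC box GGGCGG occurred 1 time each upstream of Hoxa9 and Hoxa10, and the PBX-HOX composite TGATNNAT was found in none of the 4 windows, searched on both strands. No match overlapped another. Among all 32851 windows of 250 bases, 10.8% held TTTATG, 32.7% held GGGCGG and 7.68% held TGATNNAT, with a median of 6 CpG. Among the 24 windows of the 22 Hox genes in that table, these shares were 20.8%, 41.7% and 16.7%, with a median of 12.5 CpG. These matches are descriptions of sequence and were tested against no binding data.

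The 3′ genes of groups 1 to 5, which pattern the hindbrain, pharyngeal arches and neck, had moderate levels that mostly overlapped between genotypes. Hoxa3, needed for the thymus and parathyroid glands, had an RPKM of 12.0 and 12.1 in WT and 14.01 and 9.95 in Mut. Hoxb2, a hindbrain and facial nerve gene, had an RPKM of 7.44 and 6.19 in WT and 6.33 and 5.82 in Mut. Both genes overlapped between the groups, and the log2 fold changes were -0.05 (SE 0.20) for Hoxa3 and -0.21 (SE 0.21) for Hoxb2. Hoxb3 had an RPKM of 6.89 and 4.56 in WT and 5.21 and 4.34 in Mut, with WT replicate 1 above the other 3 samples. Its log2 fold change of -0.31 (SE 0.25) became 0.05 without that sample. Hoxc5, a gene of the neck to thorax transition, had an RPKM of 6.75 and 9.26 in WT and 11.2 and 9.96 in Mut. Both Mut samples were thus above both WT samples, by a log2 fold change of 0.36 (SE 0.18) with an adjusted p of 0.411 in edgeR.

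Hoxa2, Hoxa4, Hoxb4, Hoxb5 and Hoxc4 had mean RPKM between 2.47 and 7.08. Their log2 fold changes ran from -0.21 for Hoxa2 to 0.19 for Hoxb4. The hindbrain gene Hoxb1 and Hoxd1 had 1 read each, both in WT replicate 2. Over the 13 tested genes of groups 1 to 5 the median log2 fold change was -0.05, and 0 of them had an unadjusted edgeR p under 0.05. That threshold was passed by 6.28% of all tested genes as lower in Mut and by 9.29% as higher. In RefSeq, Hoxa3 transcripts overlap those of Hoxa4, Hoxa5 and Hoxa6, Hoxb3 overlaps Hoxb4, and Hoxd3 overlaps Hoxd4, and reads in shared stretches cannot be assigned to either gene from the files.

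Genes of groups 6 to 8, which act in the thorax, had both Mut samples below both WT samples in 3 of 8 tested genes, Hoxa6, Hoxa7 and Hoxd8. The same held for 19.2% of all tested genes. Hoxa6 had an RPKM of 11.8 and 7.44 in WT and 7.2 and 6.58 in Mut, so that both Mut samples were lower, WT replicate 2 by little. Hoxb6, whose forced expression extends rib formation in mouse embryos, had an RPKM of 10.4 and 6.43 in WT and 6.19 and 7.01 in Mut. Hoxb7 had an RPKM of 9.04 and 6.24 in WT and 6.05 and 7.002 in Mut. In all 3 genes WT replicate 1 was the highest sample, and WT replicate 2 lay within 1 RPKM of both Mut samples. The log2 fold changes were -0.52 (SE 0.30) for Hoxa6, -0.40 (SE 0.28) for Hoxb6 and -0.27 (SE 0.25) for Hoxb7, and they became -0.13, 0.02 and 0.04 without WT replicate 1. Without WT replicate 2 that of Hoxa6 was -0.87. Hoxb8 had mean RPKM of 3.38 in WT and 3.28 in Mut (SD 1.08 and 0.269, n = 2 each).

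Hoxa7 had the smallest p of the tested genes of groups 6 to 8. Its counts of 1627 and 1389 reads in WT and 1317 and 802 reads in Mut, scaled by depth and length, placed the Mut samples at 65.1% and 43.5% of the WT mean, and the WT samples at 119% and 81.4%. Both Mut samples were below both WT samples. The log2 fold change was -0.92 (SE 0.27, unadjusted p of 0.0123, adjusted p of 0.182 in edgeR). Hoxb7, the other gene of its group listed in the mouse, lies in another cluster and overlapped between the groups. The summed RPKM of group 7 was 48.7 and 33.5 in WT and 27.8 and 21.6 in Mut.

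The 5′ genes of groups 9 and 10 in HoxA and HoxC had the lowest Mut values relative to WT among the tested Hox genes. Group 9 genes specify the lower thorax and the sternal or floating form of ribs, and group 10 genes suppress rib formation in the lumbar region. Hoxa9 had an RPKM of 3.60 and 3.12 in WT and 2.05 and 1.44 in Mut. Hoxc9 had an RPKM of 5.81 and 3.81 in WT and 2.85 and 2.33 in Mut. Both Mut samples of each gene lay below both WT samples. The log2 fold change was -0.98 (SE 0.26, adjusted p of 0.151 in edgeR) for Hoxa9 and -0.93 (SE 0.30, adjusted p of 0.208 in edgeR) for Hoxc9.

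Hoxa10 had an RPKM of 1.94 and 1.08 in WT and 0.438 and 0.110 in Mut, from 105, 73, 35 and 8 reads. These reads covered 70.1% and 63.9% of the gene length in WT and 53.8% and 23.2% in Mut. The Mut samples stood at 29.0% and 7.27% of the WT mean. Hoxc10 had an RPKM of 1.42 and 1.80 in WT and 0.708 and 0.277 in Mut, from 57, 90, 42 and 15 reads. The groups did not overlap for either gene, and Mut replicate 2, the female sample, was the lowest for both. That sample was also the lowest for Hoxa7, Hoxa9 and Hoxc9. The log2 fold change was -2.48 (SE 0.63, adjusted p of 0.144 in edgeR) for Hoxa10 and -1.73 (SE 0.48, adjusted p of 0.167 in edgeR) for Hoxc10. In these bulk cultures, fewer cells that express a gene and less RNA of it per cell cannot be told apart.

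Hoxb9, the HoxB gene of group 9, was on the other side. Its RPKM was 4.76 and 4.74 in WT and 6.64 and 5.72 in Mut, with both Mut samples above both WT samples. The log2 fold change was 0.34 (SE 0.18, adjusted p of 0.426 in edgeR). Within group 9 the summed RPKM was therefore 14.6 and 11.8 in WT and 11.5 and 9.52 in Mut, a smaller relative difference than in Hoxa9 or Hoxc9 alone. The summed RPKM of group 10, which has no HoxB member in the mouse, was 3.51 and 2.90 in WT and 1.15 and 0.387 in Mut.

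**Figure D2:**
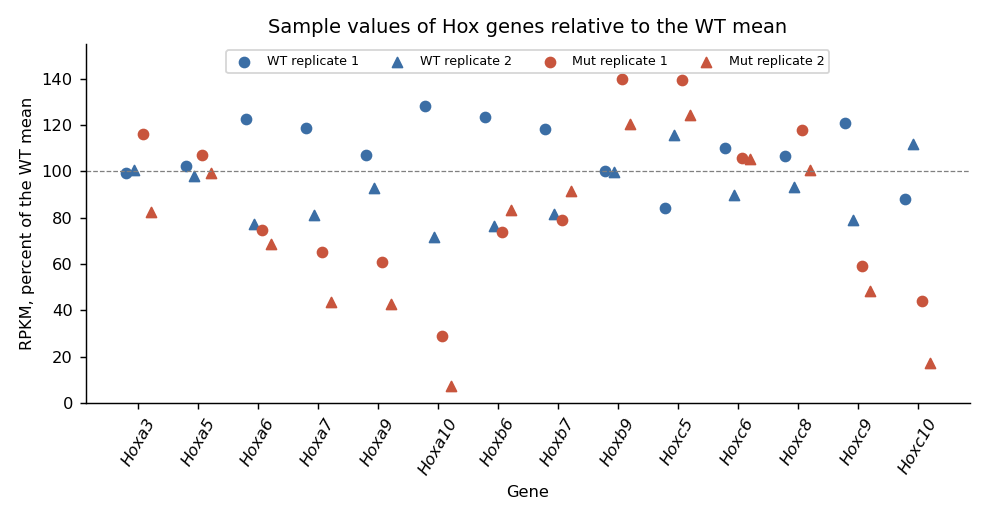
RPKM of 14 Hox genes in every sample as a percent of the mean of the 2 WT samples, with the dashed line at 100% (circles, replicate 1; triangles, replicate 2; blue, WT; red, Mut). The Mut samples of Hoxa7, Hoxa9, Hoxa10, Hoxc9 and Hoxc10 lie between 7.27% and 65.1%, those of Hoxa5, Hoxc6 and Hoxc8 between 99.5% and 118%, and those of Hoxb9 and Hoxc5 above 120%.

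The genes past group 10 and most of HoxD were at the limit of detection. Hoxa11 had 9 and 2 reads in WT and 1 and 0 in Mut, and Hoxc12 had 1 read in WT replicate 2. Hoxb13, of the tail end of the axis, had 1 read in each Mut sample and 0 in WT. Hoxc13, known for its part in hair and nails, had 8 and 6 reads in WT and 10 and 27 in Mut, an RPKM of 0.157, 0.0944, 0.133 and 0.393. The groups overlapped, and it entered the test only through the reads of the Mut samples (log2 fold change of 1.02, SE 0.69, adjusted p of 0.549 in edgeR). A count of 0 in Mut replicate 2 allows an RPKM of up to 0.0464 for Hoxa11, taking 3 reads as the limit, and this covers counting error only.

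In HoxD, the highest gene was Hoxd8, with an RPKM of 0.969 and 1.37 in WT and 0.793 and 0.646 in Mut. Hoxd4 had an RPKM of 0.390 and 0.463 in WT and 0.378 and 0.180 in Mut. Both genes had lower values in both Mut samples, with log2 fold changes of -0.74 (SE 0.38, adjusted p of 0.415 in edgeR) for Hoxd8 and -0.64 (SE 0.49) for Hoxd4. Hoxd3 had 3 and 12 reads in WT and 11 and 13 in Mut (0.34, SE 0.64). Hoxd9 had 21 and 9 reads in WT and 0 and 2 in Mut, an RPKM of 0.476 and 0.164 in WT and of 0 and 0.0337 in Mut. Hoxd10 had 6 and 1 reads in WT and 0 in both Mut samples, and Hoxd11 had 7 and 0 in WT and 4 and 1 in Mut. These last 3 genes were too low for the test, and the limits set by 0 reads of Hoxd10 in Mut are RPKM values of 0.0523 and 0.0574. Hoxd10 and Hoxd11 overlap in RefSeq, so their few reads may be shared. The summed RPKM of HoxD was 2.12 and 2.20 in WT and 1.33 and 1.03 in Mut.

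**Figure D3:**
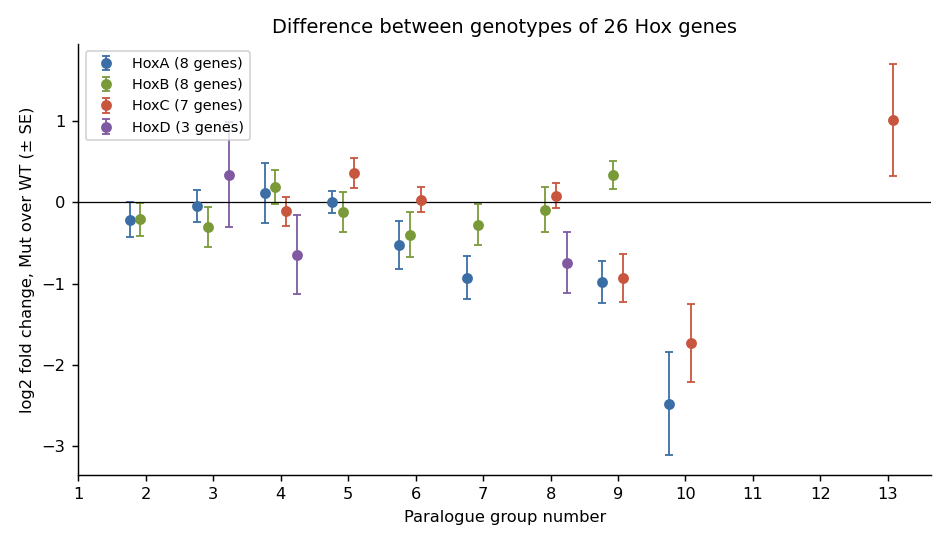
Log2 fold change of Mut over WT from edgeR, with its standard error as bars, for 26 tested Hox genes by paralogue group number (blue, HoxA; green, HoxB; red, HoxC; purple, HoxD; 2 samples per genotype). The other genes of groups 1 to 8 lie between -0.74 and 0.36, while Hoxa7 lies at -0.92, Hoxa9 and Hoxc9 lie near -0.98 and -0.93, Hoxa10 and Hoxc10 lie at -2.48 and -1.73, and Hoxb9 and Hoxc13 lie above 0.

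Across the whole family, 17 of the 27 tested genes had a negative and 10 a positive log2 fold change. In the edgeR test 0 of the 27 had an adjusted p under 0.05, as did 0 of all 14123 genes (0%), and the smallest adjusted p was 0.144 for Hox genes and 0.051 for all genes. At an unadjusted p under 0.05, 5 Hox genes were lower in Mut (Hoxa10, Hoxa9, Hoxc10, Hoxa7 and Hoxc9), which is 18.52% of the tested Hox genes beside 6.28% of all tested genes. At the same threshold, 0 Hox genes and 9.29% of all genes were higher. Both Mut samples were below both WT samples in 8 Hox genes (29.6%, beside 19.2% of all genes) and above them in 4 (14.8%, beside 28.3% of all genes). The tested Hox genes had a median log2 fold change of -0.12, and all tested genes one of 0.01. The smallest p of an exact permutation test of 2 against 2 samples is 0.3333, and the edgeR p values draw on a spread estimated across genes.

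DESeq2 gave an adjusted p under 0.05 to 3 Hox genes, all lower in Mut, which is 11.1% of those tested beside 1.86% of all genes. These were Hoxa10 (adjusted p of 0.009), Hoxa7 (0.0201) and Hoxa9 (0.0413). Leaving out samples changed the edgeR calls. Without WT replicate 2, 6 Hox genes were lower at an adjusted p under 0.05 (Hoxa10, Hoxa6, Hoxa9, Hoxb3, Hoxb6 and Hoxc9) and 1, Hoxc5, was higher, beside 10.3% of all genes lower and 9.25% higher in that fit. Without Mut replicate 1, the Mut group is the female sample alone beside male WT samples, so genotype and sex cannot be told apart. The log2 fold changes in that fit were -3.82 for Hoxa10, -2.58 for Hoxc10 and -1.26 for Hoxa7. Without Mut replicate 2, which leaves male samples only, they were -1.80, -1.20 and -0.64. For the 5 genes the log2 fold change stayed negative in all 4 fits that left out 1 sample. It lay between -3.82 and -1.80 for Hoxa10 and between -2.58 and -1.20 for Hoxc10. The ranges were -1.28 to -0.73 for Hoxa9, -1.26 to -0.60 for Hoxa7 and -1.26 to -0.57 for Hoxc9. In each of the 5, both Mut samples lay below both WT samples. Leaving out 1 sample could therefore hardly turn the sign, so these ranges show size and do not test direction.

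In HoxA and HoxC, genes of groups 9 and 10 had lower log2 fold changes than all tested genes of groups 1 to 8. Hoxa9 at -0.98 and Hoxc9 at -0.93 were close to Hoxa7 at -0.92. Hoxc4, Hoxc5, Hoxc6 and Hoxc8 showed no decline along the cluster (-0.11, 0.36, 0.04 and 0.08). Hoxc13, the most 5′ of the tested HoxC genes, went the other way at 1.02, from few reads. With the 4 clusters pooled, log2 fold changes had a median of -0.05 over the 13 tested genes of groups 1 to 5. It was -0.33 over the 8 of groups 6 to 8 and -0.96 over the 6 of groups 9 to 13. Of these last 6, 4 (Hoxa9, Hoxa10, Hoxc9 and Hoxc10) had both Mut samples below both WT samples, as did 19.2% of all tested genes. Spearman's rho of the log2 fold change with the group number was -0.342 over the 27 genes, -0.402 over the 16 of HoxA and HoxC and 0.381 over the 8 of HoxB. These are descriptions across genes that share the same 4 libraries and, at the 5′ end, low counts, and genes are not independent replicates. The summed RPKM of HoxA was 96.2 and 81.0 in WT and 76.6 and 59.9 in Mut, and its share of all Hox RPKM was 38.8% and 38.9% in WT and 34.8% and 30.6% in Mut. HoxB gave 19.4% and 17.3% in WT and 18.0% and 19.7% in Mut. HoxC gave 41.0% and 42.8% in WT and 46.7% and 49.2% in Mut, with sums of 102, 89.0, 103 and 96.3. All Hox genes together had a summed RPKM of 248 and 208 in WT and 220 and 196 in Mut, which overlapped.

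Of 33 non-coding RNAs of the clusters, looked up by Entrez identifier, 6 had a read and 3 were tested. Mira, transcribed between Hoxa6 and Hoxa7 and described in embryonic stem cells to bring the methyltransferase MLL1 to these genes, had an RPKM of 24.9 and 28.9 in WT and 16.8 and 15.7 in Mut. Both Mut samples were below both WT samples, and here WT replicate 1 was not the highest. The log2 fold change was -0.77 (SE 0.16, adjusted p of 0.108 in edgeR, 0.0151 in DESeq2). Hoxaas3, antisense in the Hoxa3 to Hoxa6 region, had an RPKM of 1.54 and 1.05 in WT and 0.425 and 0.975 in Mut (log2 fold change of -0.93, SE 0.53). As the strand of the reads is not stated, antisense transcripts and the genes they overlap cannot be told apart. Of the genes just outside the clusters, 0 of 9 tested had an unadjusted edgeR p under 0.05, and their median log2 fold change was 0.03. That threshold was passed by 6.28% of all tested genes as lower in Mut and by 9.29% as higher. The 2 with the smallest p were Calcoco2, beyond HoxB, with a log2 fold change of 1.01 (SE 0.51, 8 to 34 reads per sample) and Snx10, beyond HoxA, with 0.31 (SE 0.19).

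TALE homeodomain proteins of the PBX, MEIS and PKNOX families bind DNA together with Hox proteins, and all 9 of their genes were tested. Meis2 had an RPKM of 20.0 and 21.6 in WT and 26.5 and 25.8 in Mut (log2 fold change of 0.29, SE 0.12, adjusted p of 0.325 in edgeR). Pknox2 had an RPKM of 7.55 and 8.18 in WT and 10.95 and 9.72 in Mut (0.35, SE 0.14). Both Mut samples were above both WT samples for Meis2 and Pknox2, and also for Pbx3 (log2 fold change of 0.24) and the rare Pbx4 (1.50, from 5 and 18 reads in WT and 38 and 44 in Mut). Pbx2 and Pknox1 had lower values in both Mut samples, with log2 fold changes of -0.21 and -0.29, and Meis1 and Meis3 overlapped between the groups. Pknox2 and Pbx4 were among the genes higher in Mut at an unadjusted edgeR p under 0.05, and 0 of the 9 were lower. Of all tested genes, 9.29% were higher and 6.28% lower at that threshold. Both Mut samples were above both WT samples in 28.3% of all tested genes and below them in 19.2%. The median log2 fold change of the 9 genes was 0.24, and none of them passed the adjusted threshold.

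Chromatin complexes keep Hox genes on or off in their domains. For the COMPASS complexes, which methylate histone H3 at active genes, 0 of 15 tested genes had an unadjusted p under 0.05 and the median log2 fold change was -0.0041. The smallest p values belonged to Setd1b, with a log2 fold change of -0.39 (SE 0.19), and Men1, with -0.21 (SE 0.13). For the Polycomb group, which represses Hox genes outside their domains, 1 of 31 tested genes was lower at an unadjusted p under 0.05 and 0 higher, with a median of 0.04 and a range of -0.57 to 0.66. Both Mut samples were above both WT samples in 11 of the 31 and below them in 6. Of all tested genes, 28.3% were above and 19.2% below in this way. At an unadjusted edgeR p under 0.05, 6.28% of all tested genes were lower and 9.29% higher. The gene past that threshold was Jarid2, a subunit of the repressive complex PRC2, with an RPKM of 5.53 and 4.10 in WT and 3.54 and 3.15 in Mut (log2 fold change of -0.57, SE 0.20, adjusted p of 0.241 in edgeR). Ring1, of the complex PRC1, had a log2 fold change of -0.40 (SE 0.18). Among the 7 genes of the SENP family, which are SUMO proteases except for the NEDD8 protease gene Senp8, 0 had an unadjusted p under 0.05, with the smallest p for Senp5 (log2 fold change of 0.37, SE 0.16) and Senp6 (-0.56, SE 0.28).

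Of the signals that set Hox domains in the embryo, the list held Cdx factors, GDF11 with a receptor, and genes of retinoic acid, and no Cdx gene had enough reads for a test. Among the 14 tested genes, 1 was higher and 1 lower at an unadjusted p under 0.05, with a median log2 fold change of -0.15. Rarb, a retinoic acid receptor and itself a target of retinoic acid, had an RPKM of 0.392 and 0.617 in WT and 1.65 and 1.003 in Mut (log2 fold change of 1.35, SE 0.39, adjusted p of 0.182 in edgeR). Aldh1a3, an enzyme that makes retinoic acid, had 7.27 and 8.03 in WT and 5.53 and 4.08 in Mut (-0.71, SE 0.19, adjusted p of 0.164 in edgeR). Of 19 tested transcription factors outside the clusters that also mark position in the trunk and limbs, 9 were lower and 1 higher at an unadjusted p under 0.05, with a median log2 fold change of -0.54. At the same edgeR threshold, 6.28% of all tested genes were lower and 9.29% higher. Pax1, a sclerotome factor, had an RPKM of 9.63 and 8.48 in WT and 2.48 and 4.67 in Mut (-1.39, SE 0.29, adjusted p of 0.108 in edgeR). Tbx15, a T-box factor of the limb and trunk skeleton, had 6.29 and 9.03 in WT and 4.10 and 2.86 in Mut (-1.17, SE 0.25, adjusted p of 0.108 in edgeR). Both genes had an adjusted p under 0.05 in DESeq2, with the lowest value in Mut replicate 1 for Pax1 and in Mut replicate 2 for Tbx15.

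Summed markers of cell types that the cultures could hold did not overlap between genotypes for chondrocytes, muscle, osteoblasts, tendon and fibroblasts, and macrophages. The sums overlapped for endothelium, Schwann cells, epidermis and blood, and none of the markers passed the adjusted threshold in edgeR. Of 15 tested chondrocyte markers, 12 were lower in Mut at an unadjusted edgeR p under 0.05 and 0 higher. Of all tested genes, 6.28% were lower and 9.29% higher at that threshold, which also applies to the counts below. The summed RPKM of the chondrocyte markers was 1064 and 1042 in WT and 524 and 661 in Mut. For skeletal muscle, 4 of 10 tested markers were higher and 0 lower, with a summed RPKM of 85.3 and 30.9 in WT and 140 and 157 in Mut. The osteoblast sum was 172 and 70.0 in WT and 19.5 and 41.4 in Mut, with 3 of 4 tested markers lower, and that of tendon and fibroblast markers was 9186 and 6154 in WT and 5882 and 3993 in Mut, with 3 of 8 lower and 1 higher. The macrophage sum was 20.1 and 18.8 in WT and 11.2 and 16.1 in Mut, with 1 of 6 lower. The sums for Schwann cells were 7.68 to 14.5, with 1 of 3 tested markers higher, those for endothelium were 0.772 to 1.35, with 1 of 4 higher and 1 lower, those for epidermis were 0.773 to 1.05, with 0 of 2 past it, and those for blood, with reads of 4 of 8 markers and none at the minimum for a test, were at most 0.365. The part of these cell type differences in the values of Hoxa7, Hoxa9, Hoxa10, Hoxc9 and Hoxc10 was not tested.

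**Figure D4:**
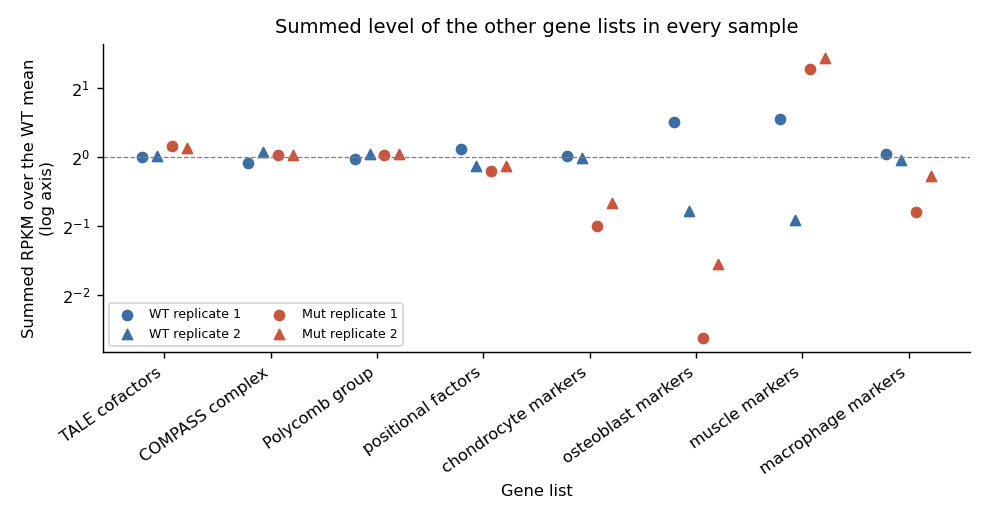
Summed RPKM of 8 gene lists in every sample, divided by the mean of the 2 WT samples, on a log axis with the dashed line at the WT mean (circles, replicate 1; triangles, replicate 2; blue, WT; red, Mut). Chondrocyte and osteoblast markers lie below the line in both Mut samples and muscle markers above it, while the COMPASS and Polycomb lists stay close to the line in all samples.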

How the data were processed

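Poly(A) RNA of 2 WT and 2 Mut samples was sequenced commercially. For each Entrez gene the authors deposited the raw read count, and the counts of a sample summed to between 21015873 and 30994579. The authors also deposited the RPKM, which is the count scaled by gene length and by the sample's total. The percent of gene length covered by reads was deposited as well and was not tested. The submitters' processing notes name mm9 and SAMtools; the aligner, counter and annotation are not given in the sources used here. Genes without a read are not listed and were given 0.

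The raw counts entered edgeR 4.0.16 in R 4.3.3 (robust quasi-likelihood fit, TMM factors of 0.966 to 1.03). Of the 18298 genes listed, 14123 reached 10 counts in 2 or more samples and were tested, and p values were adjusted over them by Benjamini-Hochberg. Each standard error is the log2 fold change divided by the square root of its F statistic. Alternatives were DESeq2 1.42.0, relative log expression factors, a minimum of 10 counts in every sample or no minimum, limma 3.58.1 on log2(RPKM + 1) and log2(RPKM + 0.1), a fit with a block for the replicate number, and fits without each sample in turn. Sums of RPKM and counts of expressed genes were recomputed with other scaling, minimum RPKM values and samples. The fit was tested on simulated data with known changes.

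Values of every sample are given for the 3 members of each cluster with the highest mean RPKM, members past an adjusted p of 0.05 in any fit, and the 5 with the smallest p, and other members are given more briefly. A few items are not reported here, although counts, sums and medians over the lists include them. From other lists, TALE genes with a mean RPKM of at least 1 and the 2 genes with the smallest p of each list are named. Hoxa2, Hoxa11, Hoxb9, Hoxc13, Hoxd10, Hoxd11, Col2a1 and Pbx4 were named after their values were seen where the rule did not name them. Members and lists were chosen with earlier results of these data known. Promoter windows came from RefSeq on GRCm38.p6, a build other than that of the files, and no coordinate of the files was used. The counts of the replicates differed by more than sampling noise (chi-square per degree of freedom of 48.6 for WT and 23.7 for Mut), so each sample was counted separately.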

Additional observations from a re-analysis of the deposited data

How the results depend on the processing

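The direction of the 5 Hox genes with the smallest p values was negative under every alternative that gave a value. As both Mut samples lay below both WT samples in each, this sign was nearly fixed in advance. The calls of these 5 genes at an adjusted p under 0.05 were not stable. The number of Hox genes lower in Mut was 3 with DESeq2 and 0 to 6 when 1 sample was left out, and the number higher was 0 to 1 when 1 sample was left out. For all genes, DESeq2 called 434 higher and 263 lower, the fit with no filter called 225 and 61, and leaving out 1 sample gave 68 to 1296 higher and 37 to 1444 lower, with the largest counts without WT replicate 2. With an arm of 1 sample, that sample is assumed to vary like the other group. The cause of these shifts was not tested.

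With the replicate number as a block, 0 Hox genes, 84 genes higher and 33 lower were called, and the median log2 fold change of Hox genes was -0.119. Across genes, replicate 1 minus replicate 2 in WT and in Mut correlated at -0.0371. The labels do not say whether samples of the same replicate number were handled together, and this correlation cannot decide it.

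Some signs turned. Hoxa5 was at -0.0098 with DESeq2, -0.00999 with relative log expression factors and -0.0061 with no filter. Leaving out 1 sample gave log2 fold changes of -0.0809 to 0.0819 for Hoxa5, -0.331 to 0.199 for Hoxa3, -0.625 to 0.0508 for Hoxb3, -0.753 to 0.0166 for Hoxb6, -0.57 to 0.044 for Hoxb7, -0.156 to 0.214 for Hoxc6, -0.0621 to 0.216 for Hoxc8, -0.379 to 0.0333 for Meis1 and -0.554 to 0.24 for Meis3. The median log2 fold change of tested Hox genes ran from -0.286 with no filter to -0.013 without WT replicate 1. The number of expressed Hox genes was 22 and 14 with RPKM minimums of 0.3 and 3. Leaving out 1 sample turned the sign of the log2 ratio of summed RPKM for HoxB (-0.298 to 0.121), HoxC (-0.0299 to 0.161) and groups 3 (-0.307 to 0.113), 4 (-0.0251 to 0.0819), 6 (-0.231 to 0.167) and 8 (-0.0149 to 0.197).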
